A study of Sus scrofa with 37 samples.

Results

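The enzymes described here remove superoxide and peroxides from cells: the glutathione peroxidases GPX1, GPX3 and GPX4, the superoxide dismutases SOD1 and SOD2, catalase (CAT), the peroxiredoxins PRDX1 and PRDX4, thioredoxin (TXN) and nucleoredoxin (NXN). These 10 symbols were taken as a named set, and their rows were found through the Ensembl pig identifiers in the 2 deposited tables of read counts, 1 for islets and 1 for pancreas, which list the same 25880 genes. A row was found for 8 of the 10. GPX1 and TXN matched no row and were not analysed here. GPX4 had a row that is listed at 0 in all 35 libraries, so 7 enzymes carried counts.

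The RNA came from pigs, and samples were labelled High or Low for islet density, and the comparisons address which transcripts differ with that label and between the tissues. The islet libraries were 8 High, 9 Low and 1 with no density label (animal 12AS51), and the pancreas libraries were 8 High and 9 Low. Islets had been purified and kept for 7 days in floating culture before RNA was taken, whereas a pancreas sample was 50 mg of parenchyma from the duodenal lobe, taken at retrieval. Tissue, isolation and culture therefore cannot be told apart, and a piece of that size samples 1 site of the organ. No genotype, strain, age or treatment is given, and how density was scored is not stated. Codes in the sample titles name 20 animals, 17 of them with samples of both tissues, and the libraries with counts come from 19 animals, 16 of them with counts in both tissues. The density label belongs to the sample: of 16 animals labelled in both tissues, 11 had the same label in both and 5 did not. One of the 5 is 15LS30, Low in pancreas and High in islets, whose islet sample was not analysed here.

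Superoxide dismutases turn superoxide into hydrogen peroxide, SOD1 mainly in the cytosol with copper and zinc and SOD2 in mitochondria with manganese. Catalase, in peroxisomes, splits hydrogen peroxide into water and oxygen, glutathione peroxidases reduce peroxides with glutathione, and peroxiredoxins do so with thiol groups that thioredoxin restores. Pancreatic beta cells are known in rodents for low levels of catalase and of glutathione peroxidase activity, while acinar cells, which fold large amounts of digestive enzyme, carry out much disulfide formation in the endoplasmic reticulum, a process that yields hydrogen peroxide.

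Gene counts came to 3237653 to 6702589 per islet library and to 1855075 to 3922006 per High pancreas library. Among the Low pancreas libraries, 7 held only 265000 to 536014 counts, and 6 of these came from animals whose code begins with 14. All animals with such a code are Low in both tissues. In the islets 15 of 15 endocrine markers with a row were higher than in the pancreas and 13 of 13 acinar markers were lower, as the tissue labels say. The islet library of 12AS51 stood apart: its 10 most abundant genes took 87.8% of its counts, and its endocrine markers summed to 8538 CPM (a gene's counts scaled to a library total of 1000000), against 55062 to 99483 CPM in the other islet libraries. It entered the comparison of tissues and a description of genes with like levels over the islet libraries, and no comparison by density. The source name of that sample and of the islets of 11KS28 says pancreas where the title says islets, and the title was followed. A CPM value depends on transcript length and cannot be set side by side between genes. Between libraries it also depends on the share that the most abundant genes take. The 10 most abundant genes took 53.3 to 71.7% of counts in the 7 Low pancreas libraries of low depth. In the other 10 pancreas libraries they took 29.3 to 45.1%. CPM values and the exact tests on them are not corrected for this, whereas edgeR's fits are scaled between libraries.

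**Figure D1:**
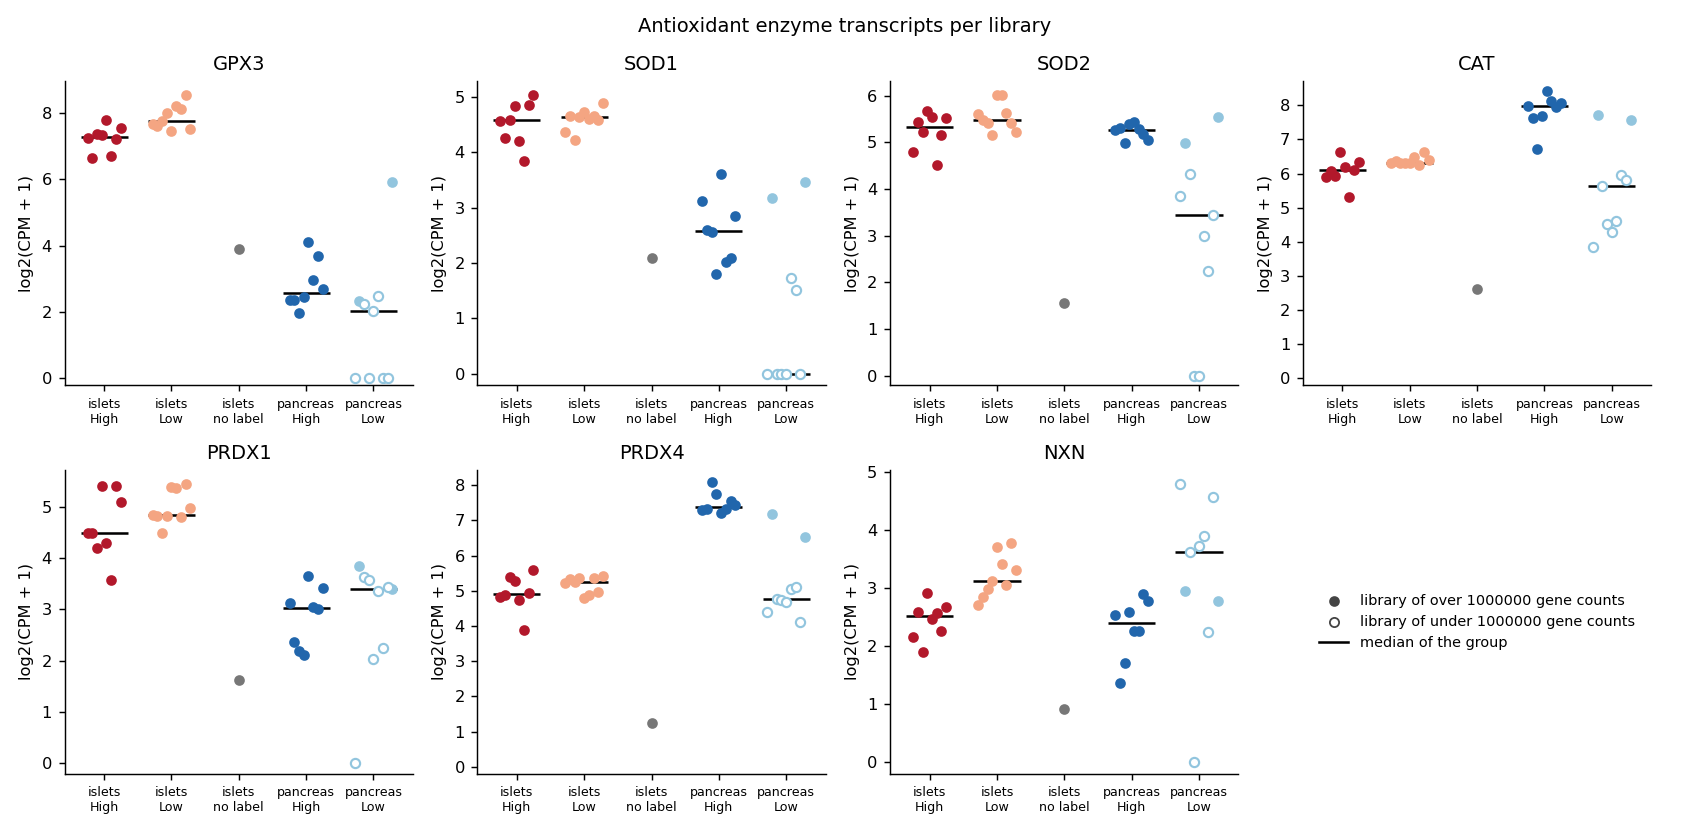
Level of each of the 7 enzymes with counts in every library, as log2(CPM + 1), for islets High, islets Low, the islet library with no density label, pancreas High and pancreas Low. Points are libraries, open points are the libraries of under 1000000 gene counts, and lines are group medians. GPX3 lay at 99.5 to 372 CPM in all labelled islet libraries and at 0 to 59.4 CPM in pancreas, whereas CAT and PRDX4 were higher in pancreas libraries of over 1000000 counts than in any islet library.

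Between the tissues, the extracellular glutathione peroxidase GPX3 differed most of the 7. It was 15.4-fold higher in islets than in pancreas, and SOD1 and PRDX1 were 2.89-fold and 2.52-fold higher. The peroxiredoxin of the endoplasmic reticulum, PRDX4, was 5.55-fold lower in islets and catalase 3.15-fold lower. SOD2 and NXN did not pass the test. By edgeR's quasi-likelihood test with Benjamini-Hochberg adjustment over all genes at 0.05, 5 of the 7 enzymes with counts differed, 3 higher and 2 lower in islets. The same test called 62.6% of the 12339 genes tested, 31.1% higher and 31.5% lower, so the share of enzymes called is close to the background of this comparison. GPX3 and SOD1 had at the median 9 and 8 counts in pancreas, against at least 94 and 22 in every islet library. They passed the filter on low counts mainly through the islets, so their direction is tied to the filter. In a fit with no filter both were still called higher in islets. Without the islets of 12AS51 and 11KS28 the same 5 were called, with GPX3 at 3.96 and PRDX4 at -2.44 on the log2 scale. The median log2 change was -0.07 over the enzymes and -0.01 over all genes. In bulk tissue, fewer cells of a type and less RNA per cell cannot be told apart.

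GPX3 had at least 14.0, at the median 185 and at most 372 CPM in the 18 islet libraries, against 0, 4.12 and 59.4 CPM in the 17 pancreas libraries. The islet library at 14.0 CPM is that of 12AS51, and the pancreas library at 59.4 CPM is the Low library of 15LS30. The other 17 islet libraries all lay above every pancreas library, and 15 of 17 pancreas libraries lay below every islet library. Such overlaps, here and below, were not counted for all genes, so no background stands beside them. The log2 change was 3.95 (SE 0.32, adjusted p = 8.53e-14), which places GPX3 at percentile 99.5 of the log2 changes of all genes tested. In the 16 animals with counts in both tissues, GPX3 was higher in the islets of 16 (exact two-sided sign-flip permutation p = 3.05e-05, the smallest that 16 animals can give).

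Among the pancreas libraries, the 1 with the most GPX3 also had the most of the endocrine markers. The pancreas of 15LS30 had an endocrine marker sum of 16064 CPM and 7803 CPM of INS, the insulin gene, where the next highest pancreas library had 3354 CPM for the sum. Over the 10 pancreas libraries of over 1000000 counts, GPX3 and the endocrine level (the mean log2(CPM + 1) of the markers) had a Pearson r of 0.89 (permutation p = 0.00657, adjusted p = 0.092 over 14 relations) and a Spearman rho of 0.58 (permutation p = 0.0878, adjusted p = 0.246). Without the 2 libraries farthest from the median endocrine level, r was 0.40, so the relation rests on those libraries. Within the 8 High libraries r was 0.63 (exact permutation p = 0.128) and rho 0.50 (exact permutation p = 0.216). Whether endocrine cells in the pieces gave the GPX3 counts was not tested.

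SOD1 ranged over 3.28, 23.1 and 31.7 CPM in islets (lowest, median, highest), against 0, 3.05 and 11.2 CPM in pancreas. Its lowest islet value is again that of 12AS51, and the other 17 islet libraries lay above every pancreas library. Its log2 change was 1.53 (SE 0.21, adjusted p = 5.89e-08), and the islets were higher in 15 of 16 animals (exact sign-flip permutation p = 6.10e-05). RefSeq's annotation of Sscrofa11.1 has the protein-coding gene SCAF4 overlapping SOD1, and no strand setting of the counting is given in the sources used here, so reads of SCAF4 and SOD1 may be mixed in this row.

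PRDX1, a cytosolic peroxiredoxin, had 2.09, 27.2 and 42.5 CPM in islets, against 0, 7.69 and 13.4 CPM in pancreas. Of the 18 islet libraries, 16 lay above every pancreas library. Its log2 change was 1.33 (SE 0.20, adjusted p = 2.37e-07), and 15 of 16 animals were higher in islets (exact sign-flip permutation p = 9.16e-05). How reads that fit more than 1 place were counted is not given either, and in human SOD1 and PRDX1 have processed copies elsewhere in the genome, so the levels of both are uncertain to that extent.

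Catalase had 5.07, 78.5 and 98.7 CPM in islets, against 13.5, 190 and 342 CPM in pancreas. The 10 pancreas libraries of over 1000000 counts, at 104 to 342 CPM, all lay above the 18 islet libraries, whereas the 7 shallow ones, at 13.5 to 61.6 CPM, overlapped the islets. On the log2 scale the change was -1.66 (SE 0.29, adjusted p = 3.80e-06), and it was -2.21 without the shallow libraries. By animal, catalase was lower in the islets of 9 of 16 (exact sign-flip permutation p = 0.343), which were all 9 whose pancreas library held over 1000000 counts.

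PRDX4 acts on hydrogen peroxide in the endoplasmic reticulum and passes its oxidation on to protein folding. It had 1.34, 33.3 and 46.8 CPM in islets, against 16.4, 145 and 273 CPM in pancreas. The picture was that of catalase: the 10 deeper pancreas libraries, at 91.2 to 273 CPM, stood above every islet library, and the shallow ones, at 16.4 to 33.6 CPM, did not. Its log2 change was -2.47 (SE 0.28, adjusted p = 6.34e-10), and -3.00 without the shallow libraries. PRDX4 was lower in the islets of 11 of 16 animals (exact sign-flip permutation p = 0.0116).

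**Figure D2:**
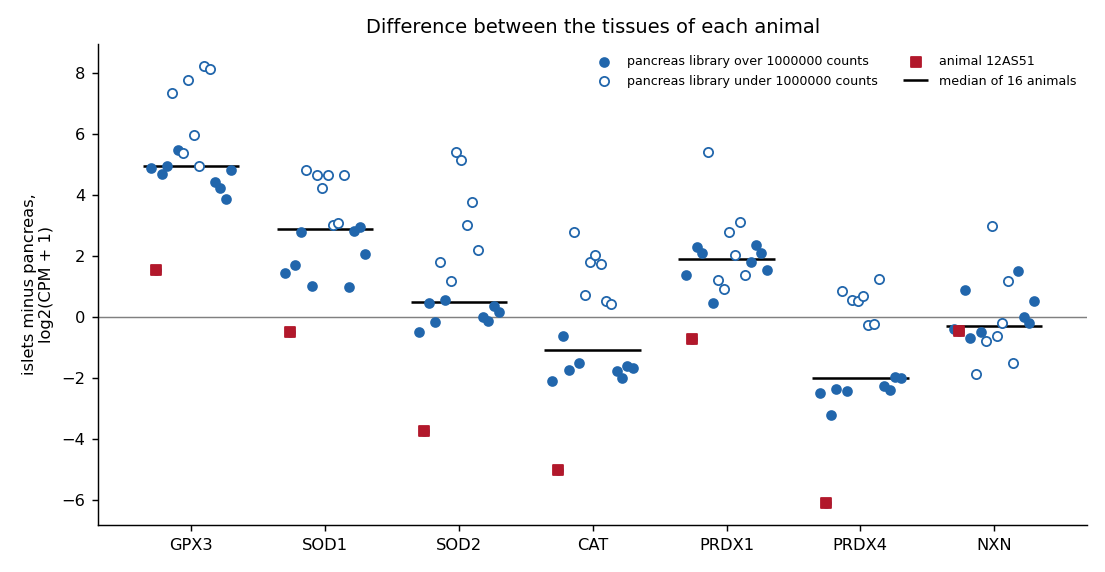
Islets minus pancreas in log2(CPM + 1) for each of the 16 animals with counts in both tissues, 7 enzymes. Filled points have a pancreas library of over 1000000 counts, open points one of under 1000000, the square is animal 12AS51 and the line is the median. GPX3 is above 0 in 16 of 16 animals, and CAT and PRDX4 are below 0 in all 9 animals with a deeper pancreas library.

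The mitochondrial dismutase SOD2 had 1.94, 42.1 and 63.6 CPM in islets, against 0, 30.9 and 45.6 CPM in pancreas, and the tissues overlapped. Its log2 change was -0.07 (95% interval -0.51 to 0.37, adjusted p = 0.801). Without the shallow pancreas libraries it was -0.42 with an adjusted p of 0.00846, so this call depends on those libraries. NXN, a thioredoxin-like regulator of signalling, had 0.895, 5.88 and 12.7 CPM in islets, against 0, 5.84 and 27 CPM in pancreas, where the highest values came from shallow libraries with at most 8 counts of the gene. Its log2 change was -0.47 (95% interval -1.05 to 0.11, adjusted p = 0.157), and 0.04 without the shallow libraries. RefSeq has an uncharacterised long noncoding RNA overlapping NXN.

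GPX4, which reduces lipid peroxides in membranes and is used by nearly every cell, had 0 of 78411489 islet counts and 0 of 30803875 pancreas counts. Read as counting error alone, these totals allow up to 0.0383 CPM in islets and 0.0974 CPM in pancreas (3 counts). The row is given as listed, and its level is not read from it.

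Genes that work with these enzymes were taken in 11 lists of 124 genes in all, of which 92 were tested between the tissues. Of these, 26 were higher and 28 lower in islets, or 58.7% called, against 62.6% of all genes (31.1% higher and 31.5% lower), so the lists as a whole lie near the background. The list of endoplasmic reticulum oxidative folding had 6 of 10 genes higher and 2 lower. Among the higher ones was QSOX1, a sulfhydryl oxidase (log2 change 3.37, SE 0.20, adjusted p = 8.41e-18), while the pancreatic disulfide isomerase PDIA2, at 0 to 1.21 CPM in islets against 172 to 1284 CPM in pancreas, had the largest change of the lists (log2 change -11.92, SE 0.50, adjusted p = 2.24e-22). Of 19 tested genes of the NFE2L2 pathway, which switches on many antioxidant genes, 8 were higher and 4 lower. SRXN1, the sulfiredoxin that repairs over-oxidised peroxiredoxins, had 3.43, 58.7 and 86.0 CPM in islets, against 0, 0.961 and 22.9 CPM in pancreas (lowest, median, highest), a log2 change of 4.04 (SE 0.33, adjusted p = 5.26e-14), and the autophagy receptor SQSTM1 one of 1.92. With such low values in 1 tissue, PDIA2 and SRXN1 passed the filter on low counts mainly through the other tissue. The direction of these 2 genes is therefore tied to the filter.

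Members of the thioredoxin system moved in both directions. TXNRD1, the cytosolic thioredoxin reductase, was higher in islets with a log2 change of 1.71 (SE 0.17, adjusted p = 1.57e-11), and TXNRD2, the mitochondrial one, was lower with -1.76 (SE 0.19, adjusted p = 1.52e-10). TXNIP, which binds and inhibits thioredoxin, had 1.19, 19.4 and 32.0 CPM in islets, against 29.1, 316 and 1774 CPM in pancreas, a log2 change of -5.09 (SE 0.41, adjusted p = 3.97e-14). Altogether 3 of 10 thioredoxin and glutaredoxin genes were higher and 4 lower, which is near the shares of all genes, 31.1% and 31.5%.

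The counts of the remaining lists stand against the same background of 31.1% higher and 31.5% lower, and with 3 to 15 genes a list nothing particular to a list is read from them. Of 15 tested genes of glutathione synthesis and transfer, 3 were higher and 3 lower. GCLM, a subunit of the enzyme that makes the first step of glutathione synthesis, changed by 1.62 on the log2 scale and GSS, the enzyme of the second step, by 1.47, whereas the transferase GSTK1 changed by -1.86. Among the relatives of the set, extracellular SOD3 fell by 4.41 on the log2 scale and PRDX5 by 1.98, while PRDX2 had 1.17, and 2 of 6 tested were higher and 3 lower. Of genes of selenium supply, 1 of 8 was higher and 3 lower, with SELENBP1 at -5.68, and of other selenoproteins, 3 of 8 were higher and 1 lower. NADPH supply had 2 of 10 higher, ME1 with 1.89 and TKT with 1.08, and 3 lower. For metal handling 1 of 4 was higher (ATOX1, a copper chaperone, 1.98) and 1 lower, for sources of superoxide 1 of 3 higher and 1 lower, and for protein repair and peroxisome partners 1 of 9 higher and 4 lower.

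**Figure D3:**
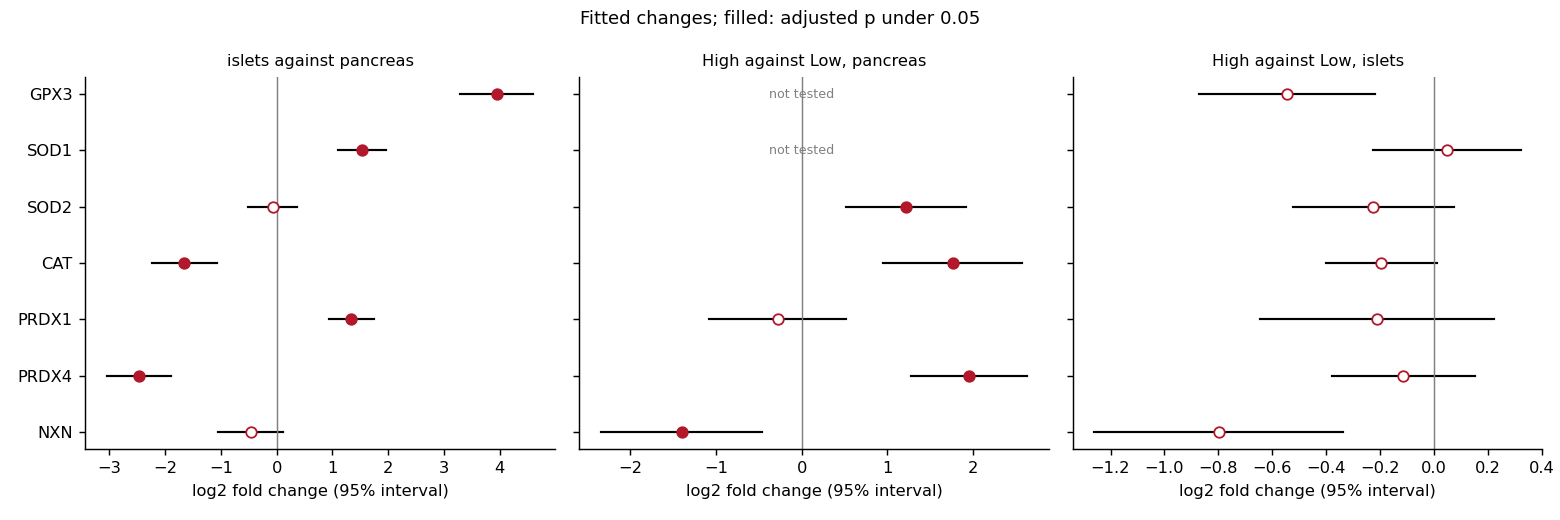
Fitted log2 changes with 95% intervals of the 7 enzymes for islets against pancreas, for High against Low in pancreas and for High against Low in islets. Filled points passed an adjusted p of 0.05, and the horizontal scales differ between panels. The islet panel has no filled point, and GPX3 and SOD1 had too few counts in pancreas to be tested there.

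Within the pancreas, High libraries had more SOD2, CAT and PRDX4 than Low libraries and less NXN. SOD2 was 2.33-fold higher, CAT 3.40-fold and PRDX4 3.89-fold, and NXN was 2.64-fold lower. Of the 7 enzymes with counts, 5 passed the filter on low counts, and of these 3 were called higher and 1 lower by edgeR's quasi-likelihood test. The background was 40.3% of 10634 genes called, 18.8% higher and 21.5% lower. With upper-quartile scaling the split of all calls was 1467 higher and 2772 lower, against 1998 higher and 2285 lower, and the median log2 change of all genes moved to -0.11, against 0.07.

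None of these 4 calls held without the shallow libraries. With the 7 Low libraries of under 1000000 counts left out, 8 High libraries stood against 2 Low ones, no gene of 13217 was called by edgeR (1222 had an unadjusted p under 0.05), and the log2 changes were 0.47 for SOD2 (adjusted p = 0.587), 0.72 for CAT (adjusted p = 0.522), 1.10 for PRDX4 (adjusted p = 0.33) and -0.14 for NXN (adjusted p = 0.944). The shallow Low library of 12FS135, whose code does not begin with 14, had 13.5 CPM of CAT and 20.2 CPM of PRDX4. Beyond the 2 deeper Low libraries and that of 12FS135, depth, the animal codes that begin with 14 and the Low label cannot be told apart. Those codes hold Low libraries only, so they give no comparison within themselves. With the leading digits of the code as a covariate, edgeR called PRDX4 (log2 change 1.51, adjusted p = 0.046). It did not call SOD2, CAT or NXN. The Low side of this comparison rests on the 2 deeper Low libraries and the shallow one of 12FS135. The latter held 6 counts of PRDX4 in 296327. The PRDX4 call with this covariate is therefore not free of depth, and PRDX4 was not called without the shallow libraries.

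The acinar markers moved the same way: 13 of 13 were higher in High pancreas. Their sum was 170344 to 251610 CPM in High libraries, against 97901 and 120582 CPM in the deeper Low libraries and 12477 to 27848 CPM in the shallow ones. With the mean acinar level as a covariate no gene was called by edgeR (447 had an unadjusted p under 0.05), and the log2 changes were 0.16 for SOD2, 0.37 for CAT, 0.77 for PRDX4 and -0.05 for NXN. That level, as mean log2(CPM + 1), was 11.89 to 12.65 in High libraries, against 8.32 to 11.63 in Low ones. Since it separates the labels completely, this fit cannot tell the label from the acinar level, and nothing is concluded from its lack of calls. Of the duct markers 5 of 8 tested were higher in High pancreas, and 5 of 14 endocrine and 3 of 3 erythroid markers were lower.

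The PRDX4 values of the 2 labels did not overlap, by a narrow gap. For how many of all genes this holds was not counted, so it is not read as particular to PRDX4. It had 148, 167 and 273 CPM in High libraries (lowest, median, highest), against 16.4, 26.4 and 145 CPM in Low libraries, so no Low library reached the lowest High one. The 2 deeper Low libraries had 145 and 91.2 CPM, which is also under every High value. The log2 change was 1.96 (SE 0.33, adjusted p = 0.000133), and the exact two-sided permutation test gave p = 0.000329. Over the 10 deeper pancreas libraries PRDX4 and the acinar level had a Spearman rho of 0.84 (permutation p = 0.00344, adjusted p = 0.0482 over 14 relations) and a Pearson r of 0.75 (permutation p = 0.0134, adjusted p = 0.0935), which was 0.75 without the 2 libraries farthest from the median. All 8 High libraries have a higher acinar level than both Low ones, and within the 8 High libraries rho was 0.69 (exact permutation p = 0.0694) and r 0.45 (exact permutation p = 0.293).

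Catalase had 104, 250 and 342 CPM in High libraries, against 13.5, 49.1 and 208 CPM in Low libraries. The 2 deeper Low libraries, at 190 and 208 CPM, lay among the High ones, and the 7 shallow ones lay below all of them. The test gave a log2 change of 1.77 (SE 0.39, adjusted p = 0.00143, exact permutation p = 0.00128). SOD2 showed the same arrangement, with 30.6, 37.6 and 42.1 CPM in High libraries, against 0, 9.83 and 45.6 CPM in Low libraries, where the deeper ones had 30.9 and 45.6 CPM and the shallow ones at most 18.9 CPM, from 5 counts or fewer. The log2 change of SOD2 was 1.22 (SE 0.34, adjusted p = 0.00709, exact permutation p = 0.00358).

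**Figure D4:**
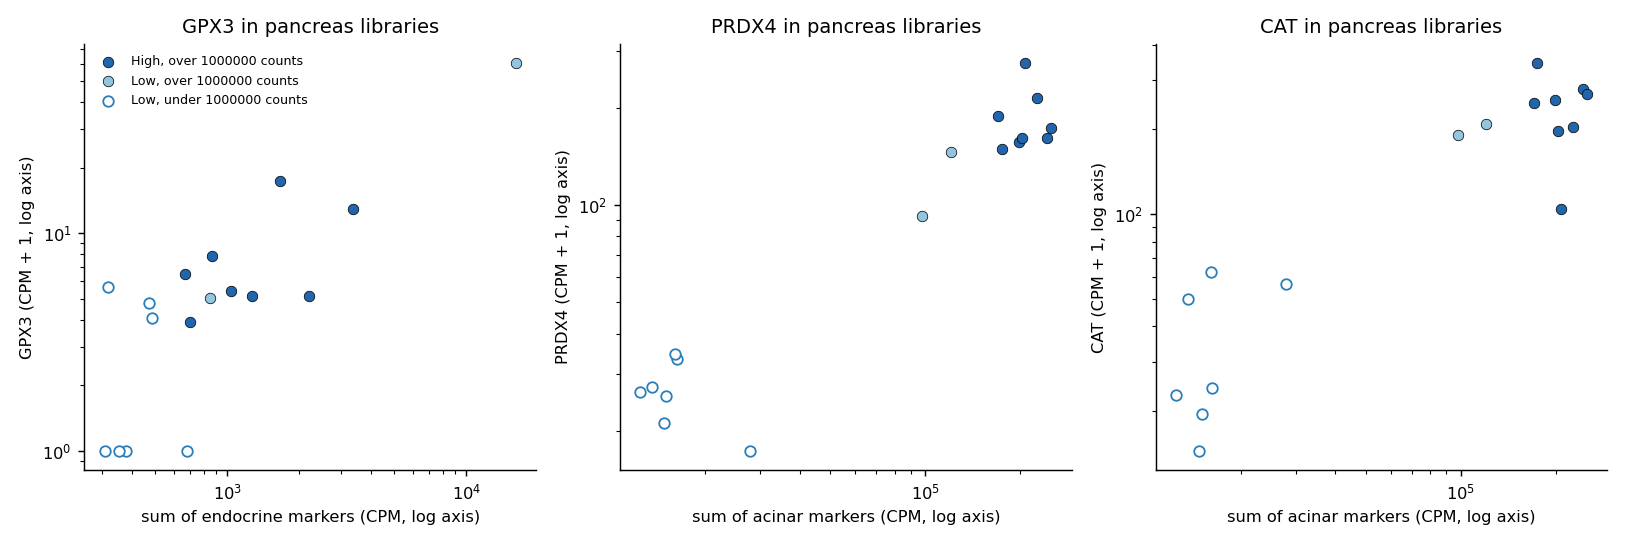
GPX3 against the summed endocrine markers, and PRDX4 and CAT against the summed acinar markers, in the 17 pancreas libraries, on log axes in CPM. Colours give the density label and open points the libraries of under 1000000 counts. The 7 shallow Low libraries lie apart at acinar sums of 12477 to 27848 CPM, and the single library with 59.4 CPM of GPX3 also has the highest endocrine sum, 16064 CPM.

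NXN had 1.59, 4.32 and 6.47 CPM in High pancreas, against 0, 11.3 and 27 CPM in Low pancreas, and the groups overlapped. In the shallow libraries its counts were 0 to 8. It passed the filter mainly through Low libraries, since 2 High libraries lay over the cutoff of 5.31 CPM, against 7 Low ones, so its direction is tied to the filter. Its log2 change was -1.40 (SE 0.46, adjusted p = 0.0184), and it did not pass without the filter, with a filter at 1 CPM or with limma-voom (adjusted p = 0.0971). On log2(CPM + 1) the exact permutation p was 0.13. PRDX1 had 3.33, 7.13 and 11.47 CPM in High libraries, against 0, 9.55 and 13.4 CPM in Low libraries, with a log2 change of -0.28 (95% interval -1.08 to 0.52, adjusted p = 0.588).

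GPX3 and SOD1 had too few counts in pancreas to pass the filter. GPX3 had 2.93, 4.98 and 16.3 CPM in High libraries, against 0, 3.09 and 59.4 CPM in Low libraries, where the 7 shallow ones held 0 to 2 counts. The exact permutation p was 0.137. In a fit with no filter the log2 change was -0.22 (adjusted p = 0.777), and 1.83 (adjusted p = 0.00855) without the library of 15LS30, so that 1 library decides its sign. SOD1 had 2.50, 4.98 and 11.2 CPM in High libraries, against 0, 0 and 10.1 CPM in Low libraries. The 2 deeper Low libraries, at 8.05 and 10.1 CPM, were above 7 of the 8 High ones. Its exact permutation p was 0.0187, and the unfiltered log2 change was 0.93 (adjusted p = 0.143).

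Of the 124 related genes, 79 were tested by density in pancreas, 23 were higher and 10 lower in High libraries, or 41.8%, against 40.3% of all genes (18.8% higher and 21.5% lower). In the oxidative folding list 7 of 10 were higher and none lower, among them ERO1B, which hands oxidising power to protein disulfide isomerases (log2 change 1.77, SE 0.48, adjusted p = 0.00571), PDIA3 (1.75) and PDIA4 (1.68, SE 0.35, adjusted p = 0.000796). Of 9 genes with a row that make superoxide or hydrogen peroxide or belong to such oxidases, 4 passed the filter on low counts, and they did so through the Low libraries: 1 or 2 of the 8 High libraries lay over its cutoff of 5.31 CPM, against 7 to 9 of the 9 Low ones. Their direction is therefore tied to the filter, and that all 4 were called lower is not read as a result about the list. The largest values were those of XDH, xanthine dehydrogenase (log2 change -4.22, SE 0.71, adjusted p = 0.00014), and the oxidase DUOX1 (-3.89, SE 0.70, adjusted p = 0.000234). Both calls rest on few counts: XDH had 0 to 17 counts per High library, against 5 to 15 per Low library, with medians of 0.544 CPM in High and 32.5 CPM in Low, and DUOX1 had 0 to 16 counts per High library, against 3 to 13 per Low library. The NFE2L2 pathway had 4 of 15 higher and 2 lower, and NADPH supply 3 of 9 higher and 2 lower, with IDH1 at 1.43 among the higher ones. Other selenoproteins had 3 of 6 higher, SELENOS with 1.27 among them, and 1 lower. Peroxisome and repair genes had 2 of 8 higher and 2 lower. PRDX5 was the called one of 5 relatives (1.38), TXNIP of 8 thioredoxin and glutaredoxin genes (2.19), SLC7A11 of 13 glutathione genes (1.08), SELENBP1 of 6 genes of selenium supply (0.64) and SLC39A14 of 3 of metal handling (0.90). None of these calls held without the shallow libraries either.

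Within cultured islets, no enzyme passed the test between High and Low. The test called 0.0% of 12070 genes: edgeR, DESeq2 and limma-voom each called 0, and 257 genes had an unadjusted edgeR p under 0.05. By unadjusted p, GPX3 stood at rank 8 and NXN at rank 4, both lower in High islets. The enzymes were chosen with earlier results of these data known. These ranks, and the unadjusted and exact p-values given below for islets, are therefore no independent evidence of a difference. The same limit applies to the p-values of the enzymes and lists between the tissues, within pancreas and for the interaction.

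GPX3 had 99.5, 156 and 220 CPM in High islets (lowest, median, highest), against 175, 215 and 372 CPM in Low islets. The groups overlapped: 6 of 8 High libraries lay below every Low library and 4 of 9 Low libraries above every High one. The log2 change was -0.55 (SE 0.16, 95% interval -0.87 to -0.22, unadjusted p = 0.00222, adjusted p = 0.999), or 1.46-fold lower in High. An exact two-sided permutation test gave p = 0.00259. Among Low islets, the 6 libraries with a code that begins with 14 had 175 to 299 CPM and the other 3 had 182, 202 and 372 CPM, and without the animals with that code the log2 change was -0.56.

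NXN had 2.73, 4.73 and 6.59 CPM in High islets, against 5.58, 7.69 and 12.7 CPM in Low islets. Here 7 of 8 High libraries lay below every Low library. The log2 change was -0.80 (SE 0.22, 95% interval -1.26 to -0.34, unadjusted p = 0.0016, adjusted p = 0.999), or 1.74-fold lower in High, with an exact permutation p of 0.00037. It rests on 11 to 27 counts per High library, against 24 to 55 per Low library.

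Catalase had 38.6, 67.3 and 98.4 CPM in High islets, against 74.8, 79.1 and 98.7 CPM in Low islets, and 6 of 8 High libraries were below every Low one. The log2 change of CAT was -0.20 (SE 0.10, 95% interval -0.40 to 0.01, unadjusted p = 0.061, exact permutation p = 0.0192). The lowest High value is that of animal 15AS28, whose 10 most abundant genes took 52.3% of its counts. In the other High islet libraries they took 21.8 to 37.0%. The exact test uses CPM, which is not corrected for this. For the other enzymes the log2 changes were -0.23 for SOD2 (95% interval -0.53 to 0.07), -0.21 for PRDX1 (-0.65 to 0.22), -0.12 for PRDX4 (-0.38 to 0.15) and 0.05 for SOD1 (-0.23 to 0.32). None of these intervals reaches a log2 change of 1 in either direction. None of 88 related genes tested passed in islets, and neither did any of the 15 endocrine or 4 acinar markers tested.

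**Figure D5:**
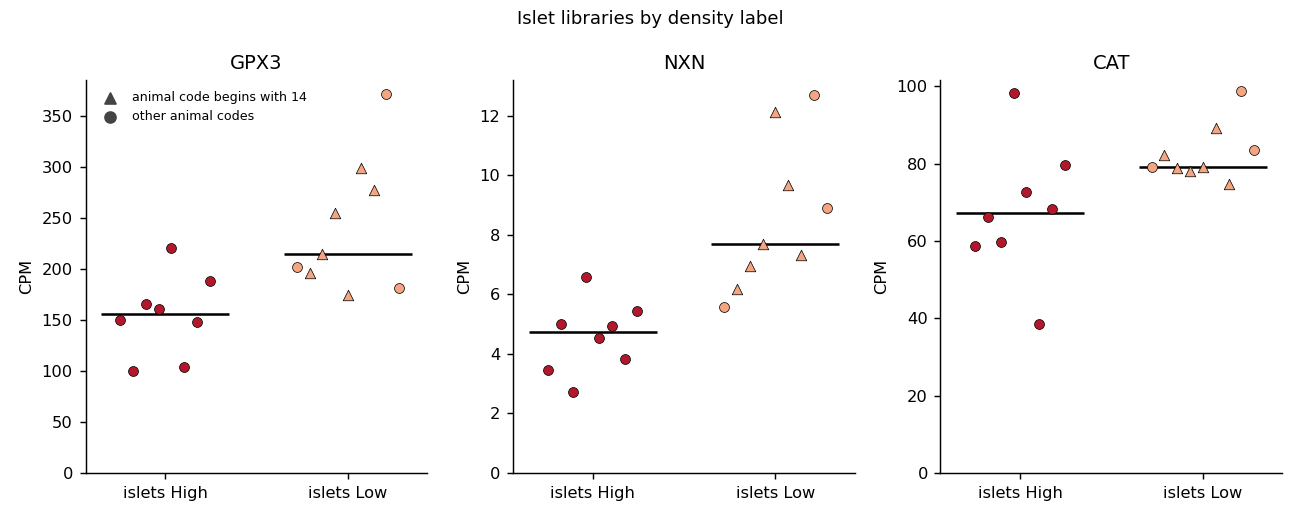
CPM of GPX3, NXN and CAT in the 8 High and 9 Low islet libraries, with medians as lines and triangles for animals whose code begins with 14. For GPX3 the medians are 156 CPM in High and 215 CPM in Low, and the groups overlap in each of the 3 panels.

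Whether the density difference itself differed between the tissues was tested as an interaction over the 34 labelled libraries. It was called for 3 of the 7 enzymes, all with a lower density difference in islets than in pancreas, where 39.9% of 14337 genes were called, 22.2% higher and 17.7% lower. The values on the log2 scale were -1.55 for SOD2 (SE 0.37, adjusted p = 0.00145), -2.11 for CAT (SE 0.44, adjusted p = 0.000461) and -2.22 for PRDX4 (SE 0.37, adjusted p = 4.59e-05). With upper-quartile scaling the split of all calls was 3995 higher and 1670 lower, against 3183 and 2535. Without the shallow pancreas libraries PRDX4 was still called (-1.32, adjusted p = 0.0447), CAT (-1.01, adjusted p = 0.114) and SOD2 (-0.78, adjusted p = 0.227) were not, and 61 genes were called in all.

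For GPX3 the interaction was -0.06 (SE 0.60, adjusted p = 0.948), and its sign changed with the scaling. It was -2.18 (adjusted p = 0.00103) without the pancreas library of 15LS30, and -2.09 (adjusted p = 0.0106) with the animal as a block, a fit that also lacks that animal because its islets were not analysed here. The GPX3 result thus depends on 1 library. SOD1 (-0.51), PRDX1 (-0.13) and NXN (0.22) were not called.

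As a description, the genes whose log2(CPM + 1) followed each enzyme most closely over the 18 islet libraries were looked for among 7212 genes of at least 10 CPM on average. The libraries share the composition of their counts, and 12AS51 lies far from the rest for most genes. For GPX3 they were ACAD11, EPB41L5 and DNAJC18, with Spearman correlations of 0.86, 0.85 and 0.84. For SOD1 they were CREB3, LSM3 and YBX1 (0.91 to 0.89), for SOD2 TCP1, ACTR3 and CYP51A1 (0.93 to 0.90), and for CAT KARS1, BLMH and EIF4A2 (0.93 to 0.92). For PRDX1 they were EIF4B, RBM3 and SNU13 (0.95 to 0.91), for PRDX4 TIGAR, TUBB4A and SUPT16H (0.92 to 0.88), and for NXN PRKCA, DDX3X and FBN1 (0.85 to 0.80). In the 10 deeper pancreas libraries GPX3 was closest to UBE2E1, RASSF9 and ETFA, at 0.95, 0.95 and 0.94.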

How the data were processed

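RNA of porcine islets and pancreas had been sequenced. Per Ensembl pig gene and library the authors deposited a raw read count, in 1 table per tissue, and per the submitters' processing notes FastQC, HISAT2 2.0.2, Subread, edgeR and the build susScr3 were used, with no role or order. No source used here gives the counting options, the strand setting or the annotation release. Of 37 samples, 35 had a column, 1 column matched no sample and was not used, and 14857 of 25880 identifiers matched a symbol. RefSeq's gene table of Sscrofa11.1 served only to find overlapping genes.

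CPM used column totals. Tests ran in edgeR 4.0.16 (R 4.3.3) on all genes: filterByExpr, TMM scaling, robust quasi-likelihood, two-sided, Benjamini-Hochberg adjusted p of 0.05. The interaction used all labelled libraries. DESeq2 1.42.0, limma-voom 3.58.1, other scalings and filters, covariates, an animal block and leaving out libraries were alternatives. Single values were tested with exact permutations (scipy 1.17.1) of log2(CPM + 1), and correlations with 100000 permutations. Scripts were tested on simulated data. Depth was 265000 to 6702589 counts per library, and limits from 3 counts cover counting error only. Among 128 pairs of libraries of 1 group none were identical, with a lowest chi-square per degree of freedom of 3.18. Nothing says how the animals relate to each other, so p-values measure the spread between these samples.

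Animal codes in the titles pair the tissues. In 15 animals the deviations of the 2 tissues from their group means correlated at -0.11 to 0.22 over 8455 genes, above 0.1 in 4. The enzymes and lists were chosen with earlier results of these data known. The text names all enzymes with a row, the 3 closest genes by Spearman correlation, and the largest called changes of the related lists.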

Additional observations from a re-analysis of the deposited data

Results flagged for a closer look

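GPX3 in the Low pancreas library of 15LS30 stood far from its group, at 59.4 CPM where the next of the 9 Low pancreas libraries had 4.64 CPM. The gap was 0.922 of the group's whole range, against a critical value of 0.493 for 9 libraries. It was the 1 flag among 28 groups examined. For normally distributed values chance flags about 1 in 20 groups. The 7 shallow libraries of this group held 0 to 2 counts of GPX3, so that rate need not hold here. The library of 15LS30 had the highest endocrine marker sum of all pancreas libraries, 16064 CPM, and 112 counts of GPX3.

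The density difference differed between islets and pancreas for 3 enzymes by the interaction test of edgeR. The values were -1.55 for SOD2, -2.11 for CAT and -2.22 for PRDX4 on the log2 scale. All 3 had a positive density difference in pancreas and none was called in islets. The shallow Low pancreas libraries and the acinar markers move with these values, and without those libraries PRDX4 was the 1 enzyme of the 3 still called.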

How the results depend on the processing

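GPX3, SOD1, PRDX1 and PRDX4 kept direction and call between the tissues under each of 12 other settings and each of 35 omitted libraries. CAT did so except in the sign-flip test over animals. The count of genes called was 15012 between tissues with no low-count filter. In pancreas it was 10836 with no filter, 7587 with a filter of 1 CPM, 0 without the shallow libraries, 368 with the code covariate, 0 with the acinar covariate and 2828 in animals labelled alike in islets and pancreas. In the animals labelled alike every Low pancreas library is shallow and has a code that begins with 14. Label, depth and code cannot be told apart in that setting. For the interaction the count of genes called was 8812 with no filter and 61 without the shallow libraries. Omitting 1 library gave 7487 to 7945 between tissues, 3305 to 5044 in pancreas, 0 in islets and 4755 to 7049 for the interaction.

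Signs turned only for values that had not been called. Between tissues SOD2 was 0.28 with no filter, 0.035 at 1 CPM, 0.040 with DESeq2, 0.024 without genes above 5% of a library, 0.15 with the replicate block by animal and 1.22 in the sign-flip test, and NXN was 0.037 without shallow libraries and 0.061 without those and the 2 islet libraries. In pancreas PRDX1 was 0.13 with no filter and 0.029 at 1 CPM. In islets, with the code covariate, SOD2 was 0.020 and PRDX4 0.0043, and SOD1 ranged from -0.023 to 0.11 with 1 library omitted. For the interaction GPX3 was 0.058 with RLE scaling, 0.17 with upper-quartile scaling and 0.99 without shallow libraries (range with 1 library omitted -2.18 to 0.27), SOD1 was 0.13 without shallow libraries, PRDX1 was 0.10 with upper-quartile scaling and 0.15 with the block (range -0.36 to 0.018), and NXN was -0.30 with no filter, -0.024 with limma-voom, -0.75 without shallow libraries and -0.054 with the block. Apart from GPX3 in the interaction, the block changed no call. The causes were not tested. The fits with an endocrine covariate, without code-14 islets and without both kinds of doubted library, and the sign-flip test, were chosen after seeing the data. In the shallow pancreas libraries 3 counts correspond to as much as 11.3 CPM, which limits GPX3, SOD1, PRDX1 and NXN there.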
